A study of Homo sapiens with 6 samples.

Results

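The desmosome genes described here are 10 genes that encode the adhesive cadherins and the plaque proteins of the desmosome: DSG2, DSG3, DSC2, DSC3, DSP, JUP, PKP1, PKP2, PKP3 and PPL. They were taken by symbol from the 27942 genes of the count table, and each symbol matched 1 gene. Of the 10 genes, 8 passed the filter on low counts and were tested, and DSG3 and PKP1 did not. RNA-seq was performed on HCT116, a human colorectal carcinoma cell line, in 3 libraries of untreated cells (NT) and 3 libraries of cells exposed to oxaliplatin at 0.5 µM for 24 h (OXA). Oxaliplatin is a platinum drug that forms crosslinks in DNA. All cells were grown in RPMI medium with fetal bovine serum, and the sample labels and the study's methods differ on whether antibiotics were added. The study's methods list HCT116 as wild-type for p53 and APC and mutated for CTNNB1, and no further genetic change is named for either group. The sources used here do not say whether the replicates were separate cultures, and the p-values then measure only the spread between these libraries. In bulk RNA, fewer cells carrying a transcript and less transcript per cell cannot be told apart.

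Desmosomes are the junctions that tie the keratin filaments of one epithelial cell to those of its neighbour. Desmogleins and desmocollins, calcium-dependent cadherins, bind each other across the gap between the cells. Inside the cell, plakoglobin and the plakophilins hold the cadherin tails, and desmoplakin links them to keratin. Simple epithelia such as the colon use mainly DSG2, DSC2 and PKP2 with PKP3, whereas DSG1, DSG3, DSC1, DSC3 and PKP1 are best known from stratified epithelia such as the epidermis.

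The desmoglein and desmocollin genes lie side by side on chromosome 18. On GRCh38 and GENCODE release 44, DSC3 spans positions 30989365 to 31042815 and DSC2 positions 31058840 to 31102522, both on the minus strand. DSG3 spans 31447741 to 31478702 and DSG2 spans 31498177 to 31549008, both on the plus strand. RefSeq promoter sequence on GRCh38.p14 was matched for 7 of the 10 genes. The 250 bases before the RefSeq start of DSC3, DSC2 and DSG3 are printed 5′ to 3′. DSC3 and DSC2 are neighbours with estimates of opposite sign, and DSG3 was near the detection limit in NT. PKP1 was also near that limit, and its promoter is not printed. Capitals mark a match to the p53 decamer, the consensus to which the p53 tumour suppressor binds in tandem copies, searched on both strands.
DSC3 chr18:31042743-31042992, minus strand: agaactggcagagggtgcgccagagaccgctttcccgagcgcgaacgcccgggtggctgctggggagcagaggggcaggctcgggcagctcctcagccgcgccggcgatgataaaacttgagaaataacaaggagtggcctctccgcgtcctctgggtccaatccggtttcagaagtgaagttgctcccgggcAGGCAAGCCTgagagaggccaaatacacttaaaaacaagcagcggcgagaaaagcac
DSC2 chr18:31102422-31102671, minus strand: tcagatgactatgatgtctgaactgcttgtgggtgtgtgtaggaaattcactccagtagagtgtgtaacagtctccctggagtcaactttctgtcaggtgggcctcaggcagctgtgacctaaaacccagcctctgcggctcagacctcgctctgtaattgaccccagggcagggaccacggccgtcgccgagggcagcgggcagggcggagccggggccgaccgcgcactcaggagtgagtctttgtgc
DSG3 chr18:31447491-31447740, plus strand: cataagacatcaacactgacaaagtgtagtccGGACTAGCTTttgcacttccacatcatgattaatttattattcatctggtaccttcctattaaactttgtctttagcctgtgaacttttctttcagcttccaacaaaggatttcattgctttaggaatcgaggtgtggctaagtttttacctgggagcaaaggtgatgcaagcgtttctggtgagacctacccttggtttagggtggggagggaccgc
The decamer began 57 bases before the RefSeq start in DSC3 and 218 bases before it in DSG3. In DSC3 it lies inside the GENCODE span given above, whose start on the minus strand is upstream of the RefSeq start. No other member with a promoter entry held the decamer, and 5.57% of 35116 RefSeq promoters of the same length did. The GC box GGGCGG, held by 42.6% of these promoters, was found 7 times before DSP, 2 times before DSG2, 2 times before the first JUP start, 1 time before PKP1 and 1 time in the DSC2 promoter printed, and not before DSC3 or DSG3. The letters CAGGTG, a core bound by the SNAI and ZEB repressors, occurred 2 times before DSG2, 2 times before DSP, 2 times before the second JUP start and 1 time in the DSC2 promoter printed, and 17.5% of all promoters held them. DSC2 and JUP each have a second RefSeq start. A match of letters is no evidence of binding, and no binding was measured here.

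Library totals lay between 32979521 and 40967880 counts, and normalized counts are raw counts scaled by edgeR's TMM factors. CDKN1A, MDM2 and TP53I3, known targets of p53, rose with log2 fold changes of 2.93, 2.22 and 2.83 (edgeR adjusted p = 0.000445, 0.000445 and 0.00109). EPCAM, which marks epithelium, stood at 9963 ± 1012 normalized counts in NT and 9689 ± 802 in OXA (SD, n = 3), while the intestinal factor CDX1 was at 0 in all 6 libraries. Of the marker lists of other cell types, 1 of 6 stratified epithelium genes, 1 of 6 fibroblast genes, 0 of 5 leukocyte genes, 1 of 4 endothelium genes and 1 of 5 cardiomyocyte genes passed the filter. Those that passed were KRT10 (mean 554 normalized counts in NT and 619 in OXA), COL1A1 (175 and 215), VWF (19.8 and 18.4) and DES (107 and 156). KRT1 and LOR, DCN and LUM, and MYH6 and MYH7 were at 0 in every library. Of the colon epithelium markers, VIL1 stood at 79.2 in NT and 60.7 in OXA, and CDX2 at 483 and 571. The 7 colon epithelium markers, which include KRT8 and KRT18, summed to 71292 to 95941 normalized counts in NT and 101350 to 113693 in OXA, and their part in the results was not tested. Libraries with the same number deviated together from their group means, with correlations across genes of 0.55, 0.54 and 0.31, so a fit with the number as a block is given where it changed a call. Of 13727 genes tested, edgeR called 5.07% without the block and 23.0% with it at an adjusted p under 0.05.

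None of the 8 tested desmosome genes passed edgeR's test without the block, which called 2.78% of all tested genes as higher in OXA and 2.29% as lower. Leaving out any single library, the first NT library included, also gave 0 of 8. Over all genes, those fits called 66 to 623 as higher and 19 to 571 as lower, fewest without OXA library 1. At an unadjusted p under 0.05 there was 1, DSC3, where 21.7% of all genes tested lay under that value. DESeq2 called 0 of 8 as well, with 1 at an unadjusted p under 0.05, beside 9.26% of all genes called, 4.63% higher and 4.63% lower. With the replicate block, 1 gene rose (DSC3) and 2 fell (DSC2 and DSP), 3 of 8 beside 23.0% of all genes, 12.1% higher and 10.9% lower. The median log2 fold change of the 8 was 0.15 without the block and 0.17 with it, and that of all genes tested was 0.023 and 0.031. DSC3 was also the only tested member whose NT and OXA libraries did not overlap, and 28.9% of all tested genes did not, 14.5% being higher and 14.4% lower. All 3 same-numbered pairs were higher in OXA in 3 members, DSC3, JUP and PPL, and lower in 3 others, DSC2, DSP and PKP2, and 61.4% of all tested genes moved in 1 direction in every pair, 33.8% higher and 27.6% lower.

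**Figure D1:**
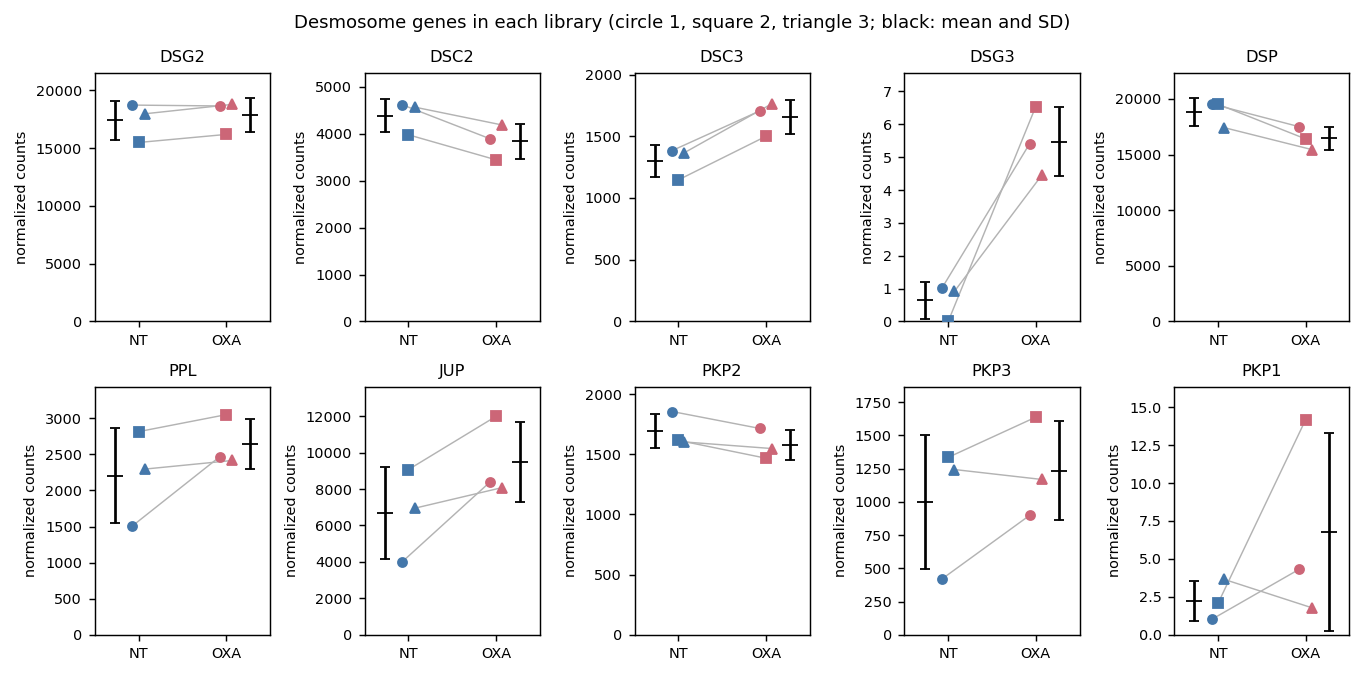
Normalized counts of the 10 desmosome genes in the 3 NT and 3 OXA libraries, with lines joining same-numbered libraries and black bars giving the mean and SD of each group. The 3 OXA libraries of DSC3 lie above the 3 NT libraries, JUP, PKP3 and PPL have a low first NT library, and DSG3 and PKP1 hold only a few counts.

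DSC3, desmocollin 3, is a desmosomal cadherin typical of the basal layers of stratified epithelia. It had 1384, 1146 and 1367 normalized counts in NT libraries 1, 2 and 3 and 1705, 1499 and 1764 in OXA libraries 1, 2 and 3. The lowest OXA library lay above the highest NT library, and library 2 was the lowest of both groups. The log2 fold change was 0.35 ± 0.12 (SE), an estimate 27.5% above NT, with an edgeR adjusted p of 0.132 without the block. With the block the estimate was 0.35 ± 0.060 and the adjusted p 0.0143. The same-numbered pairs differed by 0.30, 0.39 and 0.37 on the log2 scale.

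DSC2, the desmocollin of simple epithelia, had an estimate of the opposite sign. It had 4614, 3975 and 4565 normalized counts in NT and 3892, 3442 and 4184 in OXA. Library 2 was again the lowest of each group, and the groups overlapped. The log2 fold change was -0.19 ± 0.11, and edgeR gave an adjusted p of 0.352 without the block and 0.0455 with it. Its pairs differed by -0.25, -0.21 and -0.13.

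The blocked calls of these cadherins changed with the libraries left out, and so did the calls over all genes. With both libraries numbered 1, 2 or 3 left out, edgeR called 2939, 956 and 1886 genes higher and 2800, 673 and 1193 lower. Without both libraries numbered 2 the edgeR adjusted p was 0.211 for DSC3 and 0.372 for DSC2, and without those numbered 3 it was 0.0587 and 0.180. Without those numbered 1 it was 4.69e-08 and 0.0101. The estimates stayed between 0.30 and 0.38 for DSC3 and between -0.24 and -0.17 for DSC2 over the 3 fits. Each fit held 2 libraries per group, so these p-values lean on spread shared over genes.

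The make-up of the desmocollin pool differed between the groups by more than the spread between libraries. To compare genes, counts were divided by exon length and scaled to the same sum in each library (TPM). DSC3 made up 32.7%, 31.8% and 32.7% of the summed DSC1, DSC2 and DSC3 level in NT and 41.6%, 41.4% and 40.6% in OXA. Each OXA library was above each NT library, and the SD within a group was 0.51 points in NT and 0.52 points in OXA. The mean share was 32.4% in NT and 41.2% in OXA, a difference of 8.75 points, and the pairs differed by 8.83, 9.54 and 7.89 points. The two-sided exact permutation test gave p = 0.1, the smallest that 3 against 3 libraries allow, and 0.3 after adjustment over the 3 paralog shares tested, so this test cannot reach the threshold. DSC2 held 67.5% in NT and 58.7% in OXA, and DSC1 had 5 raw counts in all of NT and 5 in all of OXA. Any single library could be left out with the difference staying between 8.46 and 9.05 points.

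**Figure D2:**
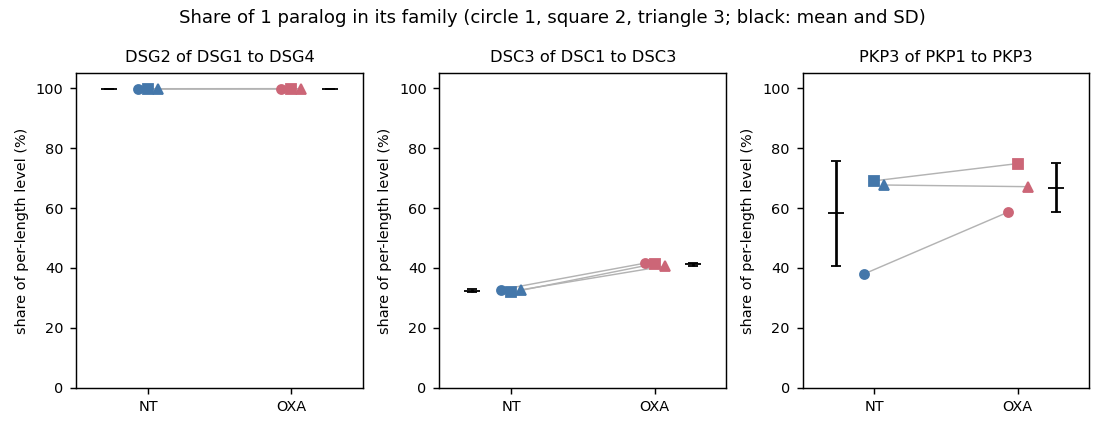
Share of DSG2, DSC3 and PKP3 in the summed per-length level of their families, in percent, for each library, with lines joining same-numbered libraries and black bars giving the mean and SD of each group. DSG2 stays at 99.8% in both groups, DSC3 goes from 32.4% to 41.2%, and PKP3 spreads from 38.0% to 74.8% over the libraries.

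DSG2 is the desmoglein found in all desmosome-bearing tissues. It had 18721, 15485 and 17967 normalized counts in NT and 18646, 16182 and 18781 in OXA. The groups overlapped, and library 2 was the lowest of each. Its log2 fold change was 0.04 ± 0.11, with an edgeR adjusted p of 0.874 and a 95% interval from -0.21 to 0.29. With the block the interval ran from -0.074 to 0.15 (adjusted p = 0.552). DSG2 held 99.8% of the summed DSG1 to DSG4 level in NT and 99.8% in OXA, with a difference of 0.031 points (exact permutation p = 0.2, adjusted 0.3).

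The other desmogleins were near the detection limit. DSG3, a desmoglein of squamous epithelia, had raw counts of 1, 0 and 1 in NT and 5, 6 and 5 in OXA. All NT libraries were at or under the floor of 3 counts, and the OXA mean was 1.84 times a floor of 3 counts per library. DSG3 did not pass the filter and has no estimate in the main fit, and edgeR without the filter on low counts did not call it. DSG1, the desmoglein of the upper epidermis, had 25 raw counts over the 3 NT libraries and 11 over the 3 OXA libraries. DSG4, known from hair, had 35 and 24. Paralogs of this family resemble each other in coding sequence, and how reads shared between them were divided is not given in the sources used here.

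DSP, desmoplakin, anchors keratin filaments to the plaque. Its mean count was 18824 in NT, above the 17391 of DSG2, and 16445 in OXA, under the 17870 of DSG2. On chromosome 6 it spans positions 7541338 to 7586714 on the plus strand. It had 19540, 19516 and 17415 normalized counts in NT and 17492, 16399 and 15445 in OXA. The NT library 3 lay just under the OXA library 1, and every other NT library was above all of OXA. The log2 fold change was -0.19 ± 0.092, with an edgeR adjusted p of 0.271 without the block and 0.0361 with it. The pairs differed by -0.16, -0.25 and -0.17. As for the desmocollins, the blocked call was lost without both libraries numbered 2 (adjusted p = 0.411) or numbered 3 (0.236) and kept without those numbered 1 (8.86e-05). Calls over all genes were also fewest without number 2 and most without number 1, and each of these fits held 2 libraries per group.

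PPL, periplakin, is a plakin of the desmosome and of the cornified envelope. It had 1509, 2815 and 2296 normalized counts in NT and 2470, 3051 and 2416 in OXA. The groups overlapped, with the first NT library far under the others. Its log2 fold change was 0.26 ± 0.22 (edgeR adjusted p = 0.543), with a 95% interval from -0.24 to 0.76, and without NT library 1 it was 0.05. The pairs differed by 0.71, 0.12 and 0.073, and the adjusted p with the block was 0.154.

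JUP, plakoglobin, is the catenin shared by desmosomes and adherens junctions. On chromosome 17 it spans positions 41754604 to 41786931 on the minus strand. It had 4008, 9067 and 6944 normalized counts in NT and 8377, 11988 and 8078 in OXA. The groups overlapped, and the first NT library was the lowest of the 6. The log2 fold change of 0.51 ± 0.29 had an edgeR adjusted p of 0.362. It was the largest of the 8 with all libraries in the fit, but without NT library 1 it was 0.24, under the 0.40 of DSC3. With the block the estimate was 0.56 ± 0.16 and the adjusted p 0.053. Each pair was higher in OXA, by 1.06, 0.40 and 0.22. When both libraries of 1 number were left out of the blocked fit, JUP was called each time, though not with all 6 libraries. Its estimates were 0.31, 0.61 and 0.72 without numbers 1, 2 and 3. These fits hold 2 libraries per group, and their p-values lean on spread shared over genes. Over all genes, these fits called 2939, 956 and 1886 as higher and 2800, 673 and 1193 as lower.

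PKP2, the plakophilin of simple epithelia and heart, had 1855, 1616 and 1603 normalized counts in NT and 1715, 1468 and 1548 in OXA. The groups overlapped, and each OXA library lay under the NT library of its number. The estimated log2 fold change was -0.10 ± 0.11 (edgeR adjusted p = 0.642), with a 95% interval from -0.35 to 0.15. The blocked adjusted p was 0.253.

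PKP3, a plakophilin of simple and stratified epithelia, was the most variable tested member. It had 420, 1334 and 1243 normalized counts in NT and 898, 1637 and 1168 in OXA. The first library was the lowest of each group. Its log2 fold change was 0.30 ± 0.41 (edgeR adjusted p = 0.724), and the 95% interval from -0.65 to 1.25 spanned a fall and a rise. Without NT library 1 the estimate was -0.06. PKP3 held 38.0%, 69.1% and 67.7% of the plakophilin level in NT and 58.6%, 74.8% and 67.1% in OXA. Its share differed by 8.59 points between the groups (exact permutation p = 0.7, adjusted 0.7) and by -1.53 points without NT library 1. These shares take every annotated exon base as length, 10288 for PKP2 and 3795 for PKP3. With the longest transcripts, of 4361 and 2817 bases, the PKP3 share would be lower in every library. PKP1, a plakophilin of stratified epithelia, had raw counts of 1, 2 and 4 in NT and 4, 13 and 2 in OXA, which overlapped, and did not pass the filter.

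**Figure D3:**
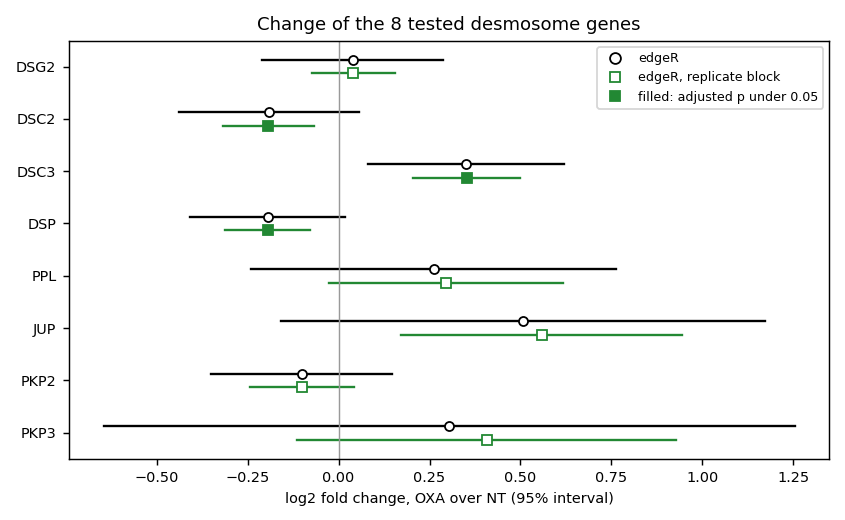
Log2 fold change of OXA over NT for the 8 tested desmosome genes, with 95% intervals, from edgeR without the replicate block (circles) and with it (squares), filled where the adjusted p is under 0.05. DSC3 lies above 0 and DSC2 and DSP lie under it with the block, and the intervals of JUP and PKP3 without the block are the widest.

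The spread of JUP, PKP3 and PPL moved with 1 library and with base composition. These genes had GC contents of 61.5%, 66.7% and 59.5% in their longest transcript, and the other 5 tested members lay between 38.9% and 47.7%. Relative to the mean of NT libraries 2 and 3, NT library 1 lay at -1.62 on the log2 scale for PKP3, -0.998 for JUP and -0.76 for PPL. For the other 5 it lay above that mean by 0.082 to 0.21. In OXA the first library lay at -0.64, -0.26 and -0.15 for PKP3, JUP and PPL. Of 33 other tested genes on the junction, keratin and regulator lists, all 11 with a GC content of at least 55% were lower in NT library 1, and 7 of the 22 with less were. The limit of 55% was chosen after the values were seen. Over all tested genes, those above 60% GC deviated by a median of -0.72 in NT library 1 and by -0.10 to 0.38 in the other 5 libraries.

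**Figure D4:**
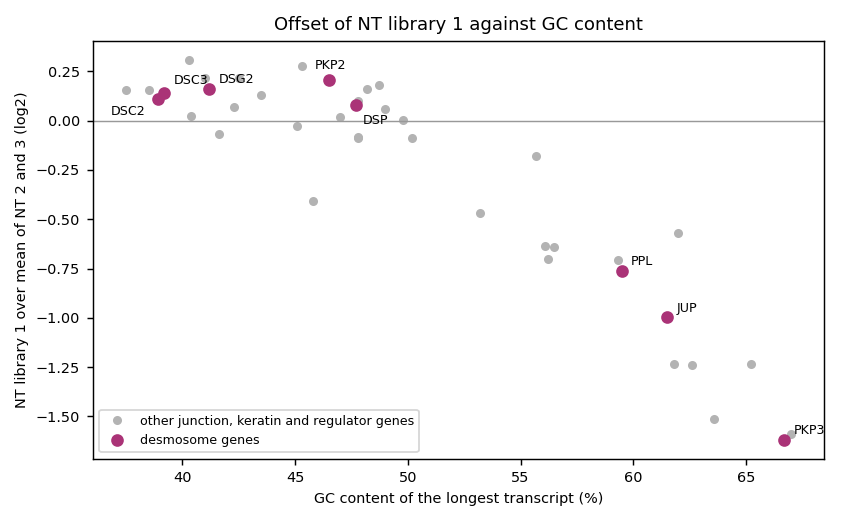
Level of NT library 1 over the mean of NT libraries 2 and 3 (log2) against the GC content of the longest transcript (%), for the 8 tested desmosome genes and 33 other tested junction, keratin and regulator genes. PPL, JUP and PKP3 lie from -0.76 to -1.62, and the 5 desmosome genes of lower GC content lie slightly above 0.

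With trends on GC content and length removed from each library, a choice made after the data were seen, edgeR called DSC3 (0.43, adjusted p = 0.00614) and JUP (0.36, adjusted p = 0.0447) as higher, 2 of 8 beside 19.6% of all genes tested, 9.43% higher and 10.1% lower. With these trends removed and the replicate block, 6 of 8 were called, beside 43.6% of all genes, 21.5% higher and 22.1% lower. DSC3, JUP, PPL (0.16, adjusted p = 0.0217) and DSG2 (0.11, adjusted p = 0.0331) rose, and DSP (-0.21, adjusted p = 0.00357) and DSC2 (-0.14, adjusted p = 0.0138) fell. PKP2 and PKP3 were not called. How far composition accounts for the spread of JUP, PKP3 and PPL beyond these fits was not tested.

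By level per length, the desmosome genes fell into 3 tiers. DSG2 stood at 214 ± 23.0 TPM in NT (SD, n = 3), DSP at 161 ± 9.28 and JUP at 157 ± 58.5. DSG2 exceeded DSP in every NT library, whereas DSP and JUP overlapped. JUP also overlapped DSG2, with 211 against 188 TPM in NT library 2. DSC2 at 40.9 ± 3.76, PPL at 33.4 ± 9.68, PKP3 at 30.7 ± 15.4, DSC3 at 19.7 ± 2.22 and PKP2 at 19.2 ± 1.68 TPM followed. Each of these overlapped its neighbour in the order. Length here counts every annotated exon base, 10288 for PKP2 and 12501 for DSC2, where the longest transcripts have 4361 and 12377. The order within this tier depends on that choice. PKP1 at 0.042 and DSG3 at 0.014 TPM came last. In OXA the means were 213 ± 47.2 TPM for JUP, 210 ± 18.9 for DSG2 and 134 ± 7.02 for DSP, so DSP lay under the other two. DSC3 stood at 24.0 ± 2.25 and DSC2 at 34.2 ± 3.73 TPM in OXA.

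Of 7 further desmosome genes 4 were tested. Without the block edgeR called 0, beside 5.07% of all tested genes, and 1 had an unadjusted p under 0.05, beside 21.7%. With the block it called 1, beside 23.0%. With the block PKP4, a plakophilin relative of many junctions, fell (-0.25 ± 0.049, adjusted p = 0.0209). The desmosomal plakin EVPL, the junction membrane protein PERP and the epidermal adhesion protein CDSN had log2 fold changes of 0.20, 0.06 and -1.07 and were not called with or without the block. PERP is a known p53 target, and its 95% interval ran from -0.25 to 0.37.

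In adherens junctions cadherins bind actin and not keratin, and 7 of 11 genes were tested. Without the block edgeR called 0, beside 5.07% of all tested genes, and 2 had an unadjusted p under 0.05, beside 21.7%. With the block it called 3, beside 23.0%. With the block VCL, which links the junction to actin, rose (0.22, adjusted p = 0.0416), and CDH1, the epithelial cadherin, and AFDN, an actin-binding scaffold, fell (-0.20, adjusted p = 0.0408, and -0.26, adjusted p = 0.0283).

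In hemidesmosomes, which tie keratin to the basement membrane, all 6 genes were tested and edgeR called COL17A1, a transmembrane collagen, as higher (log2 fold change 1.39 ± 0.23, adjusted p = 0.0207). Its mean went from 57.4 ± 14.7 to 151 ± 17.7 normalized counts (SD, n = 3). With the block ITGA6, the laminin-binding integrin subunit, and the plakin PLEC rose as well (0.28, adjusted p = 0.0209, and 0.71, adjusted p = 0.0413). PLEC has a GC content of 67.0%. The median log2 fold change of the 6 was 0.43, beside 0.023 over all tested genes. In edgeR without the block 1 of the 6 was called, beside 5.07% of all tested genes, and with it 3, beside 23.0%. With trends on GC content and length removed, 4 were called without the block and 4 with it, all higher, beside 19.6% and 43.6%.

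Among the 5 keratins of simple epithelium, the filaments that desmosomes anchor, edgeR called none without the block, beside 5.07% of all tested genes. An unadjusted p under 0.05 was found for 4, beside 21.7%, and DESeq2 called 2, beside 9.26%. The block called 4, beside 23.0%. With the block 4 rose: KRT19 (1.37, adjusted p = 0.00673), KRT7 (1.01, adjusted p = 0.0249), KRT8 (0.50, adjusted p = 0.0271) and KRT18 (0.32, adjusted p = 0.0184). These 4 have GC contents between 55.7% and 62.0%, and KRT8 and KRT18 sit next to each other with annotations that overlap on opposite strands. The fifth, KRT20, had a log2 fold change of -0.48 and was not called. With trends on GC content and length removed, edgeR called 3 of the 5 without the block and 4 with it. All were higher, and the shares called over all tested genes were 19.6% and 43.6%.

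Of 12 genes that act on desmosomes or on their transcription, 11 were tested. Without the block edgeR called 0, beside 5.07% of all tested genes, and 3 had an unadjusted p under 0.05, beside 21.7%. With the block it called 6, beside 23.0%. With the block GRHL1 and GRHL2, grainyhead-like factors that control epithelial junction genes, fell (-0.46, adjusted p = 0.0166, and -0.31, adjusted p = 0.0281). KLF5, an intestinal crypt factor, the palmitoyltransferase ZDHHC5, the calcium pump ATP2A2 and the kinase SRC rose (0.30, adjusted p = 0.0135, 0.27, adjusted p = 0.0215, 0.17, adjusted p = 0.0466, and 0.47, adjusted p = 0.0407). TP63, the p53 relative of stratified epithelia, had between 0 and 3 raw counts in every library and did not pass the filter.

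Profiles over the 6 libraries were compared as log2 normalized counts centred on their own mean, for 12058 genes, as a description. DSP, whose mean count over the 6 libraries was the highest of the members and nearly equal to that of DSG2, was closest to PTPRA, GPATCH8, HHLA3, USP42 and NONO, with root mean square differences of 0.020 to 0.032. JUP, the member with the largest absolute log2 fold change when all 6 libraries were fitted, was closest to FLNC, EXOSC4, SPEG, FARSA and SELENOM, with differences of 0.053 to 0.062. The 5 genes closest to JUP have GC contents between 57.1% and 66.6%, and all the points share the same libraries.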

How the data were processed

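RNA-seq libraries of HCT116 cells, 3 NT and 3 OXA, were compared, and groups and replicate numbers came from the sample labels. The authors deposited a raw count and a normalized signal for each gene and library. The submitters' processing notes name Trimmomatic 0.32, STAR 2.7.5b, RSEM 1.3.3, DESeq2 2.13 and GRCh38. The counts are whole numbers, and the rounding, annotation and strand setting behind them are not given in the sources used here. The deposited normalized signal is the raw count times a factor that differs between genes and libraries, and it was used only as an alternative (log2 of the value plus 1). Of 27942 genes, 13727 passed filterByExpr (minimum count 10, minimum total 15). After TMM scaling, edgeR 4.0.16 compared the groups by its quasi-likelihood test, and p-values were adjusted across the tested genes (Benjamini-Hochberg, threshold 0.05). Alternatives used DESeq2 1.42.0 and limma 3.58.1, all under R 4.3.3. Steps were tested on simulated counts. Lengths, GC content and positions came from GENCODE release 44. Same-numbered libraries had correlated deviations (0.55, 0.54 and 0.31, against a limit of 0.1), so the block with the replicate number is given as the paired fit. Different numbers gave -0.47 to 0.090, which is no separate support, since deviations from a group mean cancel within the group. The labels do not say what a number marks. Named genes were all members, genes of the other lists called with or without the block or in a count of 5 or fewer, and the 5 closest profiles to each of 2 members (mean of at least 50 normalized counts). Members and lists were chosen with earlier results of these data known. Library totals of 32979521 to 40967880 counts set the counting error, floors cover counting error only, the 95% intervals of fold changes come from the edgeR fit and include the spread between libraries, and PCR duplicates were not distinguishable. Replicates of a group differed by more than sampling noise.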

Additional observations from a re-analysis of the deposited data

How the results depend on the processing

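No tested desmosome gene was called without the replicate block under library totals only, DESeq2 size factors in edgeR, limma-voom, DESeq2, the deposited normalized signal, the other filters on low counts or leaving out any 1 library. Over all genes tested, 381 were called higher and 315 lower. The counts were 636 and 635 with DESeq2, 236 and 187 with the deposited signal, and 66 to 623 and 19 to 571 with 1 library left out, highest without NT library 1. Library totals only gave 350 higher and 511 lower, a filter of more than 1 CPM in 3 libraries 363 and 479, and a required fold change over 1.5 left 270 and 198. The replicate block gave 1664 and 1493, with 1 desmosome gene higher and 2 lower. Without both libraries numbered 1, 2 or 3 (chosen after seeing the data) it gave 2939, 956 and 1886 higher and 2800, 673 and 1193 lower, with 2, 1 and 3 desmosome genes higher and 2, 0 and 0 lower. Removing GC and length trends (chosen after seeing the data) gave 1295 and 1392, with 2 desmosome genes higher, and with the block 2953 and 3032, with 4 higher and 2 lower. The cause of these differences was not tested. With any 1 library left out, log2 fold changes ran from -0.070 to 0.11 for DSG2, from -0.062 to 0.54 for PKP3, from 0.24 to 0.77 for JUP, from 0.050 to 0.45 for PPL, from -0.29 to -0.12 for DSC2 and from -0.17 to -0.029 for PKP2, and the PKP3 share difference from -1.53 to 14.0 points. Directions reversed for DSG2 with library totals only (-0.000565), without NT library 2 (-0.070), without OXA library 3 (-0.031) and in the block without both libraries numbered 2 (-0.0030), for PKP3 without NT library 1 (-0.062), and for the PKP3 share without it (-1.53 points). The DSC3 share difference stayed between 7.32 and 9.05 points with another length, no length or any 1 library left out. Depth limits DSG3 and PKP1, whose few counts did not pass the filter and which were not called in the fit without it.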
